A study of Mus musculus with 4 samples.

Results

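Potassium and proton channels of microglia are described here through 6 genes, Kcnj2, Kcnk6, Kcnk13, Kcna3, Kcnn4 and Hvcn1, which were chosen by name from a count table of 26051 features. All 6 were in the table and all 6 passed the filter on low counts, as did 15840 features in all. The names were put together with the comparison of ko and ff already known, in which Kcnj2 was among the falls. The ko and ff values of these genes therefore stand as a description, and nothing is supported by them.

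Messenger RNA was sequenced from microglia, the macrophages that live within brain tissue, isolated from mice at embryonic day 14. The gene deleted in these cells with Cre and loxP was Hat1, a histone acetyltransferase, and the study's title concerns neural stem cells of the cortex. The groups were ko (libraries 1 and 3) and ff (libraries 2 and 5), and pairs of values below keep that order of libraries. The meaning of ff, the Cre driver and the strain are not stated in the labels, nor is whether a library held 1 embryo or several. The p-values measure only the spread between these libraries, which may be technical.

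Microglia hold their membrane potential with few channel types. Inward rectifiers and tandem-pore channels pass potassium at rest, voltage-gated and calcium-activated channels open on stimulation, and the efflux keeps the driving force for calcium entry. The voltage-gated proton channel carries out the acid left inside when the NADPH oxidase moves electrons across the membrane. Kcnj2 encodes the inward rectifier Kir2.1, and Kcnk13 encodes THIK-1, the tandem-pore channel behind the resting potassium current of ramified microglia. Kcnk6 encodes TWIK-2, known in mouse macrophages for the potassium efflux that precedes inflammasome assembly. Kcna3 encodes the voltage-gated Kv1.3, Kcnn4 the calcium-activated KCa3.1 and Hvcn1 the proton channel Hv1.

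The coding sequences of the 5 potassium channels each match a loose motif of the selectivity filter. This is the loop that strips water from potassium and lets it pass in preference to sodium. The stretches of the coding sequences that match a filter motif are shown because the filter is what makes the group a family, and because Hvcn1 lacks a match. Each is a run of 45 bases, 5′ to 3′ on the coding strand, taken from the longest protein-coding transcript in GENCODE M21 (GRCm38), with the matched motif in capitals.
Kcnj2, chromosome 11, codons 137 to 151: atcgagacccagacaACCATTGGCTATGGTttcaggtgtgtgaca
Kcnk6, chromosome 7, codons 101 to 115: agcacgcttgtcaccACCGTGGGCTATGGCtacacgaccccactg
Kcnk13, chromosome 12, codons 105 to 119: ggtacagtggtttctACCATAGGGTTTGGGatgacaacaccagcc
Kcnk13, chromosome 12, codons 232 to 246: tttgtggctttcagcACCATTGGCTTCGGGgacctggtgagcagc
Kcna3, chromosome 3, codons 392 to 406: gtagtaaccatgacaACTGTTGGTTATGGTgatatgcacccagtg
Kcnn4, chromosome 7, codons 243 to 257: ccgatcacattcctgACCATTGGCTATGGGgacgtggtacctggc
The motif searched was ACNNNNGGNTNNGGN, in frame and on the coding strand only, where N is any base. It spells threonine, any residue, glycine, a codon that starts with T (tyrosine and phenylalanine among others) and glycine. Of 21877 protein-coding genes, 514 (2.35%) held it and 27 (0.123%) held it at least 2 times, and it was in 48 of 60 other potassium channel genes with a sequence. Kcnk13 held 2 matches, 1 before and 1 after the middle of the coding sequence, Kcnk6 held 1, and Hvcn1, on chromosome 5 with 269 codons, held 0. A filter spelled otherwise is missed by this motif. The 1 match of Kcnk6, also a tandem-pore gene, is therefore not a count of its filters. Between genes the 15 motif bases were most alike in Kcnj2 and Kcnn4, with 14 identical, and least alike in Kcnk13 and Kcna3, with 9 identical for either Kcnk13 match.

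The libraries held 14814846 to 18990917 counts. Hat1 had 44.3 and 71.4 CPM (a count divided by the scaled library size, on the CPM scale) in the ff libraries and 39.2 and 36.6 in the ko libraries. Its log2 fold change was -0.61 ± 0.23 (SE) with an edgeR adjusted p of 0.298, so the titles of the ko group are checked by it only partly. Without a filter on low counts edgeR called Hat1 lower (-0.61, adjusted p = 2.3e-05). DESeq2 (adjusted p = 0.0821) and limma-voom (adjusted p = 0.275) did not call it. The Hat1 value moved with single libraries, from -0.25 without ff library 5 to -0.91 without ff library 2, and without ko library 1 it was -0.67. Ko library 1 held 3188 counts of the Y-linked Ddx3y against 0 in each of the others, in which at most 1 count of any of 4 Y-linked genes was found. It held 3 counts of Xist, the RNA of the inactive X chromosome, against 2847 to 3986 in the others. By these genes ko library 1 was male and the others female, so sex was not balanced between the groups. Of the marker lists for cell types, 9 of 10 microglial genes were in the table and none was at 0 in any library. Their summed level was 11540 and 11360 CPM in ff and 9933 and 9469 in ko. The 8 markers of border-associated macrophages, the macrophages of the brain's coverings, summed to 21850 and 19370 CPM in ff and 15320 and 17200 in ko. The ratio of ko to ff of the summed levels was 0.848 and 0.789 for these lists. It was 1.52 for monocytes and neutrophils, 1.21 for lymphocytes, 0.824 for neurons, 1.10 for neural progenitors, 0.926 for oligodendrocytes and astrocytes, 1.38 for endothelium, 1.61 for mural cells and fibroblasts and 0.956 for erythroid cells. The sums for mural cells and fibroblasts were 251.7 and 358.6 CPM in ff and 572.0 and 411.9 in ko, highest in ko library 1. EdgeR called higher 1 of 3 tested markers of monocytes and neutrophils and 1 of 7 of lymphocytes, against 1.19% of all tested genes. No channel is assigned to a cell type here, since the bulk RNA held marker transcripts of several cell types. Fewer cells of a type and less RNA per cell cannot be told apart either.

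**Figure D1:**
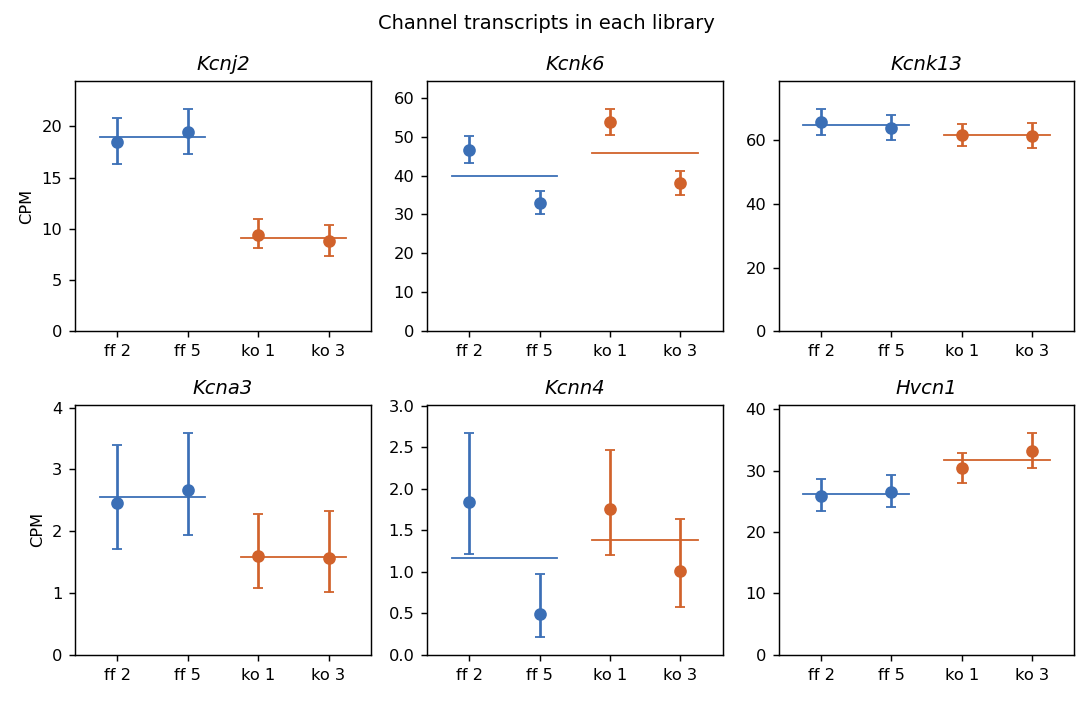
Level of each channel transcript (CPM, vertical axes from 0) in ff libraries 2 and 5 (blue) and ko libraries 1 and 3 (orange). Points are single libraries, bars are 95% counting intervals and lines are group means of 2 libraries. Kcnj2 sat at 18.5 and 19.4 CPM in ff and at 9.42 and 8.77 in ko, while Kcnk6 and Kcnn4 varied more within the groups than between them.

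Of the 6 genes, 1, Kcnj2, was called lower in ko and 0 were called higher, in a table where edgeR called 0.518% of tested genes lower, 1.19% higher and 1.7% in either direction. The median log2 fold change of the 6 was 0.07, against 0.01 over all tested genes. In 4 of the 6 the ko libraries did not overlap with the ff libraries, as was so in 49.6% of all tested genes. At an unadjusted p under 0.05 there were 16.2% of all tested genes, the share against which the unadjusted counts of the lists below stand. Nothing is read from the shares of the 6, because the genes were named with the comparison known.

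Kcnj2, the inward rectifier, was counted 271 times in ff library 2 and 313 times in ff library 5, against 177 times in ko library 1 and 139 times in ko library 3. That came to 18.5 and 19.4 CPM in ff and 9.42 and 8.77 in ko. Both ko libraries were near the same low level, both ff libraries near the same high one, and the counting intervals of the groups did not overlap, with the highest ko bound at 10.9 CPM and the lowest ff bound at 16.3. The mean fell from 19.0 ± 0.682 to 9.09 ± 0.465 CPM (SD, n = 2 each), to 0.480 of the ff level. As a log2 fold change this was -1.06 ± 0.16 (SE), with a 95% interval of -1.43 to -0.69 and an edgeR adjusted p of 0.0208. Leaving out ff library 2 gave a log2 fold change of -1.10 and an adjusted p of 0.0539, which ended the call. Leaving out ko library 1, male by Xist and the Y-linked genes, gave -1.12. The part of sex in the Kcnj2 value was not tested. With 1 library left in a group, the p-value rests on the spread of the other group only. The microglial and border-associated macrophage markers were also lower in ko by their sums, at 0.848 and 0.789 of ff against 0.480 for Kcnj2, and their part in the Kcnj2 value was not tested. The microglial sum rests mostly on Csf1r and Cx3cr1. Over its 9 genes the median log2 fold change was -0.03, with Cx3cr1 called lower (-0.92, edgeR adjusted p = 0.00108) and Tmem119, a microglial surface marker, called higher (0.61, adjusted p = 0.0158). Over the 8 border-associated macrophage markers the median was -0.28, and single values ran from -0.87 to 0.13. The lowest, Cd163, was called lower (edgeR adjusted p = 0.004).

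Kcnk13, the resting tandem-pore channel, was the most abundant of the 6. It had 65.7 and 64.0 CPM in the ff libraries and 61.6 and 61.5 in the ko libraries. The libraries were close to each other throughout, and although both ko values lay under both ff values, the counting intervals of the groups overlapped. The log2 fold change was -0.08 ± 0.08 (SE) with a 95% interval of -0.27 to 0.12 and an edgeR adjusted p of 0.704. Changes of the size seen in Kcnj2 lay outside that interval.

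Since both channels were counted in the same libraries, the ratio of their counts does not depend on scaling. There were 0.281 and 0.304 counts of Kcnj2 for each count of Kcnk13 in the ff libraries and 0.153 and 0.142 in the ko libraries. Per kilobase of transcript, Kcnj2 made up 8.85% and 10.5% of the summed level of the 5 potassium channels in ff, and 4.73% and 4.99% in ko. Kcnk13 made up 55.6% and 61.0% in ff and 54.6% and 62.0% in ko, so its share differed more within the groups than between them. The summed level itself was 38.4 and 34.1 CPM per kb in ff and 36.6 and 32.3 in ko, and these ranges overlapped.

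Kcnk6, the other tandem-pore channel, had 46.6 and 33.0 CPM in the ff libraries and 53.7 and 38.1 in the ko libraries. In each group 1 library was about as far above the other, 1.41-fold in both, and the groups overlapped. The counting intervals of the 2 ff libraries, 43.2 to 50.3 and 30.2 to 35.9 CPM, did not overlap, so this spread was larger than counting error. The log2 fold change was 0.21 ± 0.23 (SE), with a 95% interval of -0.38 to 0.79 and an edgeR adjusted p of 0.712. It was -0.05 without ff library 5 and -0.07 without ko library 1, so its sign rested on single libraries. In each group the library with more Kcnk6 had fewer endothelial marker transcripts, with summed levels of 45.0 and 69.4 CPM in the ff libraries and of 58.9 and 98.9 in the ko libraries. The same order held for the sums of neurons, neural progenitors, oligodendrocytes and astrocytes, and erythroid cells, and the reverse order for those of microglia and of monocytes and neutrophils. The other 3 lists had no common order. The part of these markers in the Kcnk6 values was not tested.

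Kcna3, the voltage-gated channel, was measured at low depth, at 36 counts in ff library 2, 43 in ff library 5, 30 in ko library 1 and 25 in ko library 3. Its level was 2.45 and 2.67 CPM in ff and 1.60 and 1.58 in ko. Both ko libraries lay under both ff libraries, but the counting intervals, 1.08 to 2.28 CPM in ko library 1 and 1.72 to 3.40 in ff library 2, overlapped. The log2 fold change was -0.69 ± 0.35 (SE), with a 95% interval of -1.50 to 0.12 and an edgeR adjusted p of 0.384. A fall as deep as that of Kcnj2 lay inside the interval, as did no change, so a difference was not detectable at this depth.

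Kcnn4, the calcium-activated channel, was counted 27 times in ff library 2 and 8 times in ff library 5, against 33 times in ko library 1 and 16 times in ko library 3. These were 1.84 and 0.497 CPM in ff and 1.76 and 1.01 in ko, and the groups overlapped. As with Kcnk6, ff library 2 and ko library 1 held the higher values. The log2 fold change of 0.27 ± 0.65 (SE) had a 95% interval of -1.24 to 1.78 and an edgeR adjusted p of 0.881. It was 1.47 without ff library 2, -0.43 without ff library 5 and -0.21 without ko library 1, so the data give no direction for this gene.

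Hvcn1, the proton channel, had 25.9 and 26.6 CPM in the ff libraries and 30.4 and 33.2 in the ko libraries. Both ko libraries lay above both ff libraries, and the mean was 26.2 ± 0.478 in ff and 31.8 ± 2.04 in ko (mean ± SD, n = 2 each). On the log2 scale the change of Hvcn1 was 0.28 ± 0.12 (SE), and its unadjusted 95% interval ran from 0.01 to 0.54. With an edgeR adjusted p of 0.298 it did not pass the threshold. Lymphocyte markers, among them those of B cells, in which this channel is also known, had summed levels of 102.3 and 95.0 CPM in ff and 117.0 and 121.3 in ko, and their part in the Hvcn1 values was not tested.

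**Figure D2:**
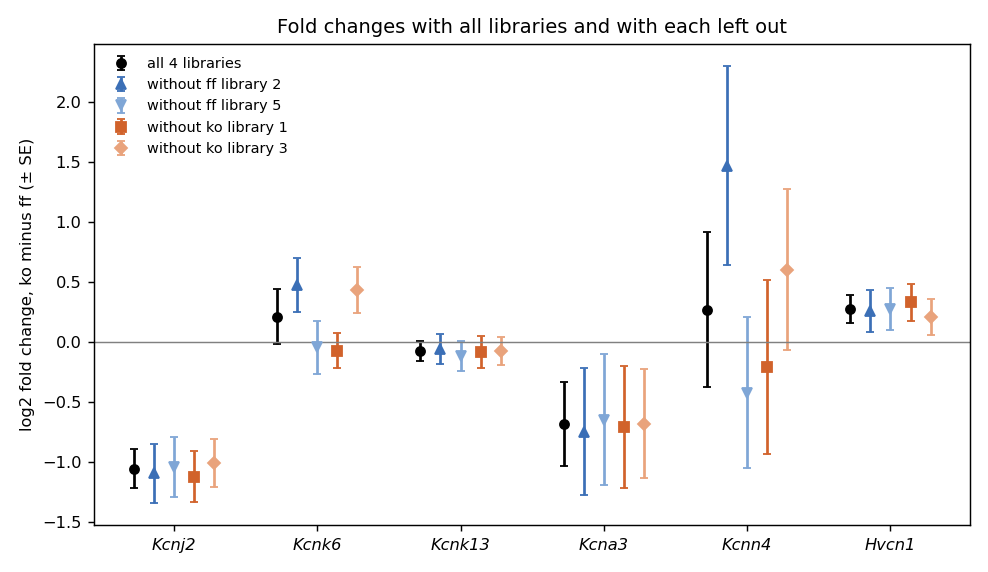
Log2 fold change of ko minus ff (vertical axis, bars are SE) for each channel gene, with all 4 libraries (black) and with each library left out in turn. Kcnj2 stayed between -1.12 and -1.01 and Kcnk13 between -0.12 and -0.06, whereas Kcnk6 and Kcnn4 crossed 0.

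Per kilobase of annotated transcript, the order of the channels in ff was Kcnk13 at 21.1 ± 0.372, Kcnk6 at 9.75 ± 2.36, Hvcn1 at 9.36 ± 0.170, Kcnj2 at 3.48 ± 0.125, Kcna3 at 1.35 ± 0.0804 and Kcnn4 at 0.587 ± 0.478 CPM per kb (SD, n = 2 each). Kcnk6 and Hvcn1 did not differ beyond their spread, and each of the other neighbours in this order kept its 2 libraries apart from those of the next. In ko the means were 20.0 ± 0.0122 for Kcnk13, 11.3 ± 0.727 for Hvcn1, 11.2 ± 2.71 for Kcnk6, 1.67 ± 0.0855 for Kcnj2, 0.834 ± 0.00770 for Kcna3 and 0.695 ± 0.266 for Kcnn4. There Kcna3 and Kcnn4 overlapped too, at 0.840 and 0.829 against 0.883 and 0.507 CPM per kb. The lengths come from GENCODE M21, and the Kcna3 transcript of 1902 bases there holds 1584 coding bases, so its level per kb would be lower if the transcripts in these cells are longer.

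Among 65 potassium channel genes in the table, ranked by mean level per kb over the 4 libraries, Kcnk13 was number 2 at 20.5 CPM per kb, Kcnk6 number 3 at 10.5, Kcnj2 number 8 at 2.58, Kcna3 number 19 at 1.09 and Kcnn4 number 24 at 0.641. By group, Kcnk13 and Kcnk6 held numbers 2 and 3 in both, while Kcnj2 was number 5 in ff and number 11 in ko, Kcna3 number 15 and number 20, and Kcnn4 number 26 and number 23. Tmem175, a potassium and proton channel of lysosomes, was number 1 at 29.5 CPM per kb. It had 114.0 ± 1.59 CPM in ff and 119.3 ± 12.7 in ko (mean ± SD, n = 2 each), with a log2 fold change of 0.06 ± 0.09 (SE). Kcnj16, which encodes the inward rectifier subunit Kir5.1, was number 4 at 4.26 CPM per kb, and is the protein-coding gene before Kcnj2 on chromosome 11 in RefSeq's order on GRCm38.p6. It had 15.2 and 17.9 CPM in the ff libraries and 13.5 and 16.5 in the ko libraries. These values overlapped between the groups, with a log2 fold change of -0.14 ± 0.17 (SE), a 95% interval of -0.54 to 0.26 and an edgeR adjusted p of 0.736.

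Of the 60 other potassium channel genes in the table, 41 passed the filter and were tested, and with edgeR 0 passed the threshold in either direction. At an unadjusted p under 0.05 there was 1, Kcnj13, and limma-voom and DESeq2, which gave 27 of them an adjusted p, also called 0. With ko library 3 left out edgeR called 2 higher and 2 lower, and with ko library 1 left out 1 higher. The median log2 fold change was 0.00, against 0.01 over all tested genes, and single values ran from -0.95 to 1.39. Accessory subunits gave the same count, 0 of 16 tested by edgeR, with 0 at an unadjusted p under 0.05, 0 by limma-voom and DESeq2 (10 with an adjusted p), and a median of 0.09. In that list Kcnip3, a calcium sensor protein that binds voltage-gated channels, had 57.5 ± 4.81 CPM in ff and 56.0 ± 9.79 in ko. Kcnab2, a beta subunit of Kv1 channels such as Kcna3, had 18.9 ± 0.274 and 20.7 ± 1.12 (SD, n = 2 each).

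The partners of these channels were counted in the same way. In the list of calcium entry and regulators of Kcnn4, edgeR called 0 of 23 tested genes, with 4 at an unadjusted p under 0.05 (Orai1, Trpv2, Itpr1 and Trpm4) where all tested genes had 16.2%, 0 by limma-voom and DESeq2 and a median log2 fold change of -0.03. Calm2, which encodes calmodulin, the calcium sensor bound to Kcnn4, had a log2 fold change of -0.08 ± 0.08 (SE). In the list of purinergic input edgeR called 0 of 12, with 1 at an unadjusted p under 0.05 (Gnb1), 0 by both other tools and a median of -0.03. P2ry12, the ADP receptor that raises the Kcnk13 current, had 952.1 ± 34.6 CPM in ff and 932.6 ± 71.6 in ko. P2ry6, a receptor for UDP, had 755.3 ± 34.8 and 785.3 ± 29.2 (SD, n = 2 each).

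The NADPH oxidase, the source of the charge that Hvcn1 balances, had 0 of 9 genes called by edgeR, 0 by limma-voom and 0 by DESeq2, and 5 at an unadjusted p under 0.05 (Ncf4, Rac2, Rap1a and Cybb among them), where all tested genes had 16.2%. Its median log2 fold change was 0.24 and 8 of 9 genes had both ko libraries above both ff libraries, as 25.8% of all tested genes did. Cybb, the catalytic subunit, had 536.7 ± 26.6 CPM in ff and 609.3 ± 5.64 in ko (mean ± SD, n = 2 each), with a log2 fold change of 0.18 ± 0.07 (SE) and an edgeR adjusted p of 0.278. Rac2, the small GTPase of the complex, had 317.7 ± 4.77 and 375.0 ± 11.4, with a log2 fold change of 0.24 ± 0.07 and an adjusted p of 0.176. The oxidase list held 2 genes called higher when ko library 1 was left out, with a median of 0.18, and 2 when ko library 3 was, with a median of 0.27.

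In the potassium-sensitive inflammasome list, edgeR, limma-voom and DESeq2 each called 0 of 9 genes, with 5 at an unadjusted p under 0.05 (Il1a, Gsdmd, Casp4, Casp1 and Nek7), against 16.2% of all tested genes, and a median of 0.26. Leaving out ko library 1 or ko library 3 gave 1 gene called higher. Gsdmd, the pore-forming gasdermin, had 229.6 ± 2.75 CPM in ff and 275.2 ± 4.82 in ko (mean ± SD, n = 2 each), with a log2 fold change of 0.26 ± 0.07 (SE) and an edgeR adjusted p of 0.141. Casp1, the protease that cleaves it, had 55.2 ± 0.786 and 64.7 ± 2.48, with an adjusted p of 0.256. Nlrp3, the sensor that responds to potassium efflux, had 15.2 ± 0.127 and 13.8 ± 0.883 CPM and a log2 fold change of -0.14 ± 0.16.

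Of ion pumps and transporters, edgeR called 0 of 23 tested genes, with 5 at an unadjusted p under 0.05 (Slc16a3, Slc12a2, Slc9a9 and Atp1b3 among them), against 16.2% of all tested genes, and a median of -0.05. DESeq2 called 1, Slc16a3, a proton-coupled lactate carrier, which had 75.3 ± 5.20 CPM in ff and 48.8 ± 7.41 in ko (mean ± SD, n = 2 each) and an edgeR adjusted p of 0.0522. EdgeR also called Slc16a3 lower with DESeq2 size factors, without scaling, without a filter and without ko library 1 or ko library 3, and limma-voom called 0. Slc9a9, an endosomal sodium and proton exchanger, had 660.7 ± 45.3 and 553.8 ± 17.6, and Atp1b3, a beta subunit of the sodium and potassium pump, had 346.5 ± 12.8 and 401.6 ± 0.671, with edgeR adjusted p of 0.187 and 0.213. Of chloride channels edgeR called 0 of 17, with 7 at an unadjusted p under 0.05 against 16.2% of all tested genes, a median of 0.01 and 0 by limma-voom. DESeq2 called 2 lower, Lrrc8a and Ano6, of which Ano6, a calcium-activated scramblase and channel, had an edgeR adjusted p of 0.0777. EdgeR called Ano6 lower without scaling, without a filter and without ff library 5 or ko library 1. Lrrc8a, the essential subunit of the volume-regulated anion channel, had 173.4 ± 32.6 CPM in ff and 118.3 ± 18.8 in ko, with an edgeR adjusted p of 0.210. EdgeR called Lrrc8a lower without a filter (adjusted p = 2.68e-07). The log2 fold change of Lrrc8a was -0.55. It was -0.35 without ff library 2, -0.76 without ff library 5, -0.74 without ko library 1 and -0.40 without ko library 3. Ostm1, the beta subunit of the lysosomal chloride exchanger, had 202.0 ± 7.01 and 186.0 ± 8.73.

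**Figure D3:**
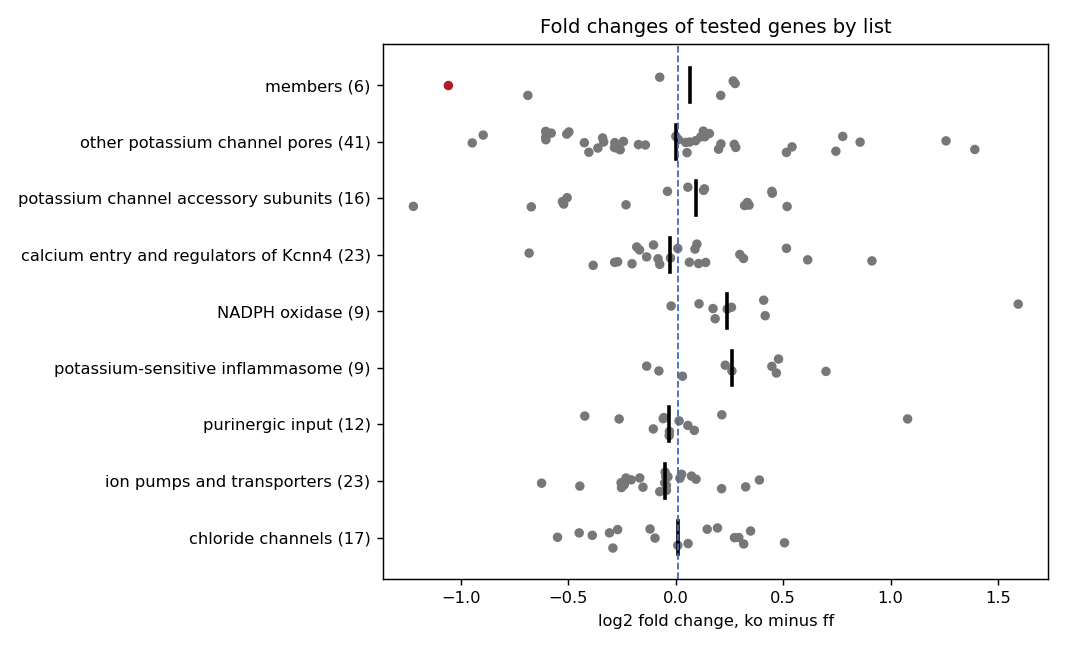
Log2 fold change of ko minus ff (horizontal axis) for every tested gene of each list, with the number tested in parentheses, short black bars at list medians and a dashed line at the median of all tested genes, 0.01. Red marks genes past the threshold, and the 1 red point is Kcnj2. Members are the 6 channel genes described here.

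The genes most like each channel were found by the root-mean-square difference of log2 CPM over the 4 libraries, each gene centred on its own mean, among genes with a mean of at least 10 CPM. This is a description over 4 libraries with no test. For Kcnj2 these were Atp6v0d2, part of the vacuolar proton pump, at 0.0503, and Cx3cr1, the fractalkine receptor, at 0.0715, and 3 of 8947 genes came within 0.1. The number of genes near a gene depends on how far its libraries lie from their mean. Kcnj2 was named with its fall known, so nothing is read from its number or its matches. Atp6v0d2 had 89.7 and 93.7 CPM in the ff libraries and 47.9 and 40.4 in the ko libraries. For Kcnk6 they were Tbkbp1 at 0.0417 and Anxa1 at 0.0598, with 14 genes within 0.1. For Kcna3 they were Carmil1 at 0.0241 and Cadm1 at 0.0328, with 41 genes within 0.1. Kcnk13 lay nearest to Cyria, at 0.00465, and Fam13b, at 0.00504, and Hvcn1 to Lrrc8d, at 0.0058, and Akr1a1, at 0.00581. These matches single out little, since 3471 genes lay within 0.1 of Kcnk13 and 1234 within 0.1 of Hvcn1. For Kcnn4 the nearest were Anxa1 at 0.378 and Enpp6 at 0.385, and no gene lay within 0.1.

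Among the 6 channels themselves, the pair with the smallest difference was Kcnk13 and Hvcn1, at 0.182, followed by Kcnj2 and Kcna3, at 0.203. The pair furthest apart was Kcnj2 and Kcnn4, at 0.977. Kcnk6 and Kcnn4, which shared their higher values in ff library 2 and ko library 1, were 0.432 apart.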

How the data were processed

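Poly(A) RNA was taken from TRIzol extracts, per the labels' protocols, and its reads were handled with CASAVA and aligned with HISAT2 2.0.5 to GRCm39, per the submitters' processing notes. How reads were assigned to genes, with or without strand, is not stated. The authors' deposited counts are whole numbers for each gene, unscaled. Of 26054 lines, 3 without counts were left out. Total counts of 14814846 to 18990917 per library set the precision, and intervals for single libraries are exact 95% Poisson intervals that cover counting error only. Within both groups the libraries differed beyond sampling noise (chi-square per degree of freedom 7.25 in ff, 13.9 in ko).

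Ko (1, 3) and ff (2, 5) were compared with edgeR 4.0.16 in R 4.3.3 (filterByExpr, TMM scaling, robust quasi-likelihood test), with Benjamini-Hochberg adjustment over 15840 genes and a threshold of 0.05. Standard errors are the log2 fold change over the root of the test's F, and 95% intervals use its degrees of freedom. An exact permutation test of 2 against 2 libraries could give no p under 0.333. Scripts were tested on simulated data. The 6 genes and all lists were chosen with earlier results of these data known. Named genes are the 6 channels, Hat1, up to 4 called genes of each list or else its 2 most abundant, and the 2 genes most like each channel. Any other gene was named after its values were seen. Alternatives were DESeq2 1.42.0, limma-voom (limma 3.58.1), DESeq2 size factors, no scaling, other filters and each library left out. With a library left out, 1 group holds 1 library, so p-values and calls rest on the spread of the other group. The reference was of another build (GRCm38), so it gave names, lengths and coding sequence and no coordinates. A few genes of the lists are not reported here by name.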

Additional observations from a re-analysis of the deposited data

How the results depend on the processing

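The call of Kcnj2 held with DESeq2, limma-voom, DESeq2 size factors, no scaling and both other filters, with log2 fold changes of -1.07 to -1.06 and adjusted p of 5.73e-06 to 0.0326. Leaving out single libraries gave -1.12 to -1.01, and the call was lost without ff library 2 (adjusted p = 0.0539). The other 5 channels were called under none of these settings in which they were tested. Kcna3 and Kcnn4 fell under the filter of 50 counts in 2 libraries, and DESeq2 gave Kcnn4 no adjusted p. With a library left out, Kcnk6 ran from -0.074 to 0.476 and Kcnn4 from -0.43 to 1.47, so both changed sign. So did Kcnip3 (-0.23 to 0.12), Tmem175 (-0.051 to 0.158), P2ry12 (-0.122 to 0.043) and P2ry6 (-0.014 to 0.102). The number of genes called over the whole table was 270, against 554 with DESeq2, 175 with limma-voom, 1386 without a filter and 198 to 1213 with a library left out, and the cause was not tested. In the 8 lists of other genes, which held 0 calls in the test as reported, leaving out 1 library gave 0 to 4 calls per list and using no filter 0 to 5. DESeq2 called Slc16a3, Lrrc8a and Ano6, edgeR called Slc16a3 with DESeq2 size factors, and Slc16a3 and Ano6 without scaling. No paired analysis was possible because the ko and ff libraries share no replicate number. With 8 to 43 counts per library, depth limits what can be said of Kcna3 and Kcnn4.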

Other observations

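Ko library 1 stood apart in a few genes of the lists. Kcnk12, the closest relative of Kcnk13 among tandem-pore channels, had 49 counts there against 6, 5 and 4 in ff libraries 2 and 5 and ko library 3, and did not pass the filter on low counts. Kcnj13, an inward rectifier known from epithelia such as the choroid plexus, had 140 counts there against 30, 37 and 46. Rac1, the small GTPase related to Rac2, had 5905 counts there against 965, 1176 and 1653. Mpo, the myeloperoxidase of granulocyte precursors, had 156 counts there against 2, 0 and 1.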
